A study of Homo sapiens with 2 samples.

Results

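The miRs catalogued late in miRBase, those with a number of 3000 or more, were examined in small RNA libraries of drug-sensitive and drug-resistant leukemia cells. A name was kept when the number after miR was at least 3000, whatever its arm, copy or asterisk suffix, which left 191 of the 934 names in the table (20.4%). They ran from miR-3065 to miR-4326, and the nearest name below them was miR-2861, read 2 times in K562 and not at all in K562/ADM. Without arm, copy and asterisk suffixes, the 191 names had 144 stems, called hairpins here. A stem can have several genomic copies, so the number of source hairpins is not known. For 47 of the 144 stems, 2 names were listed.

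The parental K562 cells come from a human chronic myelogenous leukemia and received no drug. K562/ADM was derived from them by long exposure to rising doses of adriamycin, a DNA-damaging anthracycline, and was kept in 1000 ng/mL of it. Both carry the same leukemic background, K562/ADM is a single selected line that was grown with the drug present, and 1 library was sequenced from each. The comparison is therefore between these libraries, without a replicate check, and selection, the continued presence of the drug and differences between library preparations cannot be told apart. MiRs of the blood lineage were present in both libraries, with 351692 and 507475 reads of miR-142-3p and 30470 and 19738 reads of the erythroid miR-451 in K562 and K562/ADM.

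MiRs are short RNAs cut from a hairpin precursor by Drosha and Dicer, and the strand that is loaded into an Argonaute protein represses mRNAs that pair with its seed, bases 2 to 8 from the 5' end. The numbers in miRBase follow the order in which miRs were entered. Names with a high number come largely from deep sequencing, many have been seen at low levels, and for most of them no function is established. Some overlap snoRNAs, tRNAs or rRNA, whose fragments are hard to separate from a miR.

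The sequences below are those of the names on which the results turn, from RefSeq (GRCh38.p14), with the seed in capitals. Of the 191 names, 88 had a RefSeq entry of the same name and 2 had a single arm there. A further 36 name no arm where RefSeq has both, so both arms are shown for these, and the table does not say which arm it counts. The 40 names with an asterisk were not matched to an arm, and 25 had no match. The first lines are the names with more reads in K562/ADM.
miR-3681-5p: uAGUGGAUgaugcacucugugc
miR-3681-3p: aCACAGUGcuucauccacuacu
miR-3117-5p: aGACACUAuacgagucauau
miR-3117-3p: aUAGGACUcauauagugccag
miR-4301: uCCCACUAcuucacuuguga
miR-3613-5p: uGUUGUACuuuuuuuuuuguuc
miR-3923: aACUAGUAauguuggauuaggg
The next lines are names with fewer reads in K562/ADM.
miR-3168: gAGUUCUAcagucagac
miR-3163: uAUAAAAUgagggcaguaagac
miR-3942-5p: aAGCAAUAcuguuaccugaaau
miR-3942-3p: uUUCAGAUaacaguauuacau
The last lines are names that were abundant, or whose hairpin gave reads under 2 names.
miR-3182: gCUUCUGUaguguaguc
miR-3171: aGAUGUAUggaaucuguauauauc
miR-3180-3p: uGGGGCGGagcuuccggaggcc
miR-3180-5p: cUUCCAGAcgcuccgccccacgucg

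The late names were a small part of the reads in both libraries. They held 14698 of 7677738 reads in K562, or 0.191% (95% Clopper-Pearson interval 0.188 to 0.195), and 21430 of 6895193 reads in K562/ADM, or 0.311% (0.307 to 0.315). Intervals here and below cover counting error only. Most names were rare: the 2 libraries together gave fewer than 10 reads for 111 of 191, and 1 or 2 for 60, while 27 had at least 100 and 6 at least 1000. The median was 7 reads, against 11 for the 112 names numbered 1000 to 2861 and 75 for the 617 names numbered below 1000.

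**Figure D1:**
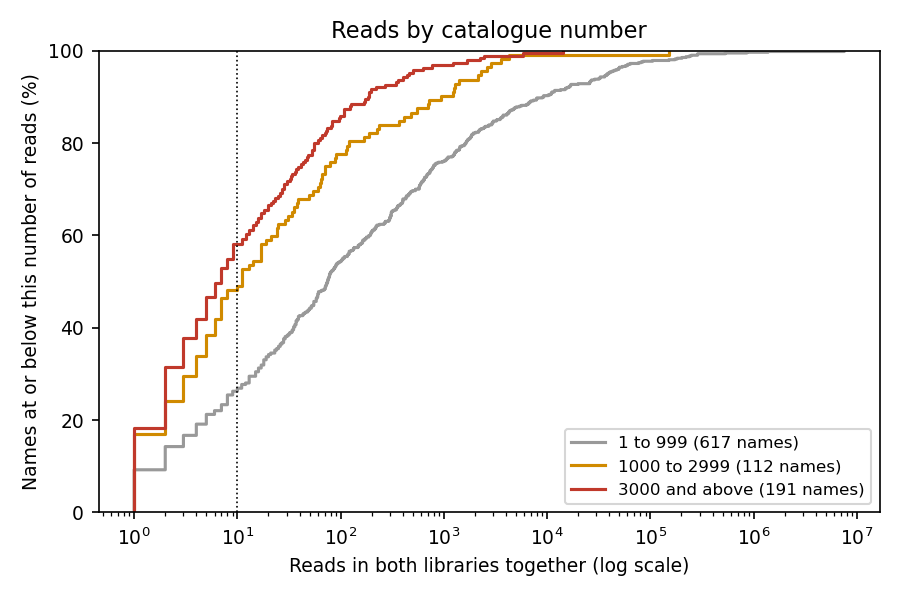
Cumulative share of names (vertical axis, %) by their reads in both libraries together (horizontal axis, log scale), for 3 ranges of catalogue number. The line of the 191 names numbered 3000 and above lies to the left of the line of the 617 names below 1000, with medians of 7 and 75 reads, and the dotted line marks 10 reads.

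A few names held most of the reads. MiR-3182, the most abundant, was read 5753 times in K562 and 8434 times in K562/ADM, or 39.1% and 39.4% of the reads of the late names. It ranked 62 among all names in K562 and 47 in K562/ADM. The top 10 names together held 76.3% and 87.8%.

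Reads were found for 163 of the late names in K562 and for 158 in K562/ADM, and 130 were found in both. The 33 names seen in K562 alone reached at most 7 reads, and the 28 seen in K562/ADM alone at most 11. Of these, 27 and 22 had 1 or 2 reads. Names found in 1 library were 31.9% of the late names, 29.5% of the names numbered 1000 to 2861 and 20.9% of those below 1000. Among names with fewer than 10 reads the order was the other way, with 54.1%, 59.3% and 65.4%. At these counts a name that was not seen cannot be called absent: 0 reads allow up to 3 reads in a library of this depth. The authors left out unique sequences seen once, yet 34 of the late names had exactly 1 read in K562 and 43 had exactly 1 in K562/ADM.

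Ratios of K562/ADM to K562 were formed from reads scaled by the median of ratios, and a name was called higher or lower when it differed at least 2-fold and its 95% counting interval excluded 1. Of the 191 late names, 14 were called higher (7.33%) and 15 lower (7.85%), against 11.1% and 15.6% of all names. Among the 43 with at least 50 reads, where calls are less limited by depth, 9 were called higher (20.9%) and 10 lower (23.3%), against 14.5% and 24.2% of all names at this depth. The direction rested on the scaling. With upper-quartile factors, which move every log2 ratio by 0.74, 31 late names were called higher (16.2%) and 4 lower (2.09%), while 23.9% of all names were called higher and 10.2% lower under the same factors, so that the whole table shifted upward. Of the calls made with the median of ratios, all 14 higher calls and 4 of the 15 lower calls were kept (miR-3168, miR-3676, miR-3163 and miR-3162). By fold alone 25.7% of the late names were higher and 32.5% lower, against 25.3% and 29.4% of all names. With the whole interval past 2-fold, 7 were higher (3.66%) and 5 lower (2.62%), against 6.53% and 11.1% of all names.

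**Figure D2:**
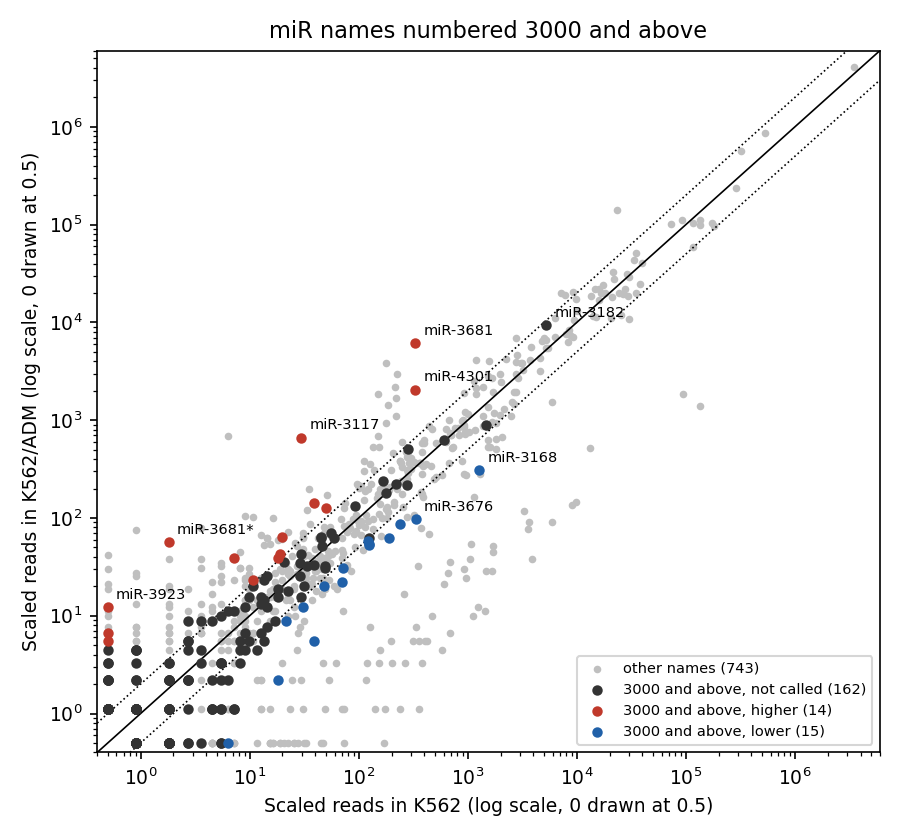
Scaled reads of each name in K562 (horizontal axis) and K562/ADM (vertical axis), log scales (names at 0 are placed at 0.5). Grey points are the other names and coloured points the 191 late names, the solid line marks equal levels and the dotted lines 2-fold differences. MiR-3681, miR-3117 and miR-4301 lie far above the upper dotted line and miR-3168 lies below the lower one.

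MiR-3681 gained more reads than any other late name. Its reads numbered 364 in K562 and 5530 in K562/ADM, 18.6-fold higher (16.7 to 20.7), and moved from rank 193 to rank 58 among all names. MiR-3681*, the second name of that hairpin, had 2 and 51 reads, 31.2-fold higher (8.21 to 265). Both names of the hairpin were thus higher in K562/ADM. The sequences lie on chromosome 2 of GRCh37, plus strand, at 12339264 to 12339285 (5p) and 12339300 to 12339321 (3p), within an intron of the noncoding gene MIR3681HG.

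Of miR-3117, K562 gave 33 reads and K562/ADM gave 600, 22.3-fold higher (15.7 to 32.6). Its arms lie at 67094135 to 67094154 (5p) and 67094168 to 67094188 (3p) on the plus strand of chromosome 1, in an intron of SGIP1, which encodes an endocytic adaptor protein. Of miR-4301, K562 gave 366 reads and K562/ADM gave 1855, 6.21-fold higher (5.55 to 6.96). It lies at 113320781 to 113320800 on the minus strand of chromosome 11, in an intron of DRD2, the dopamine receptor D2. MiR-3681, miR-3681* and miR-3117 were the only called late names with reads in both libraries and a ratio more than 10-fold from 1.

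The other higher names had fewer reads. MiR-3613-5p had 43 and 128 reads in K562 and K562/ADM, 3.65-fold higher (2.56 to 5.28), and miR-3613-3p, from the other arm, had 12 and 21, 2.14-fold higher (1.01 to 4.78). Both arms lie in an intron of DLEU2 on chromosome 13, the noncoding gene that also hosts miR-15a and miR-16-1. MiR-3940 had 22 and 58 reads, 3.23-fold higher (1.95 to 5.54), and lies in an intron of KHSRP, whose protein binds miR precursors. MiR-3150b had 56 and 113 reads, 2.47-fold higher (1.78 to 3.47), and miR-3144-3p had 8 and 35, 5.36-fold higher (2.44 to 13.4). MiR-3675-5p and miR-4284 were just above 2-fold, at 2.27 (1.31 to 4.07) and 2.14 (1.203 to 3.92), with 21 and 39 reads and 20 and 35 reads. The call of miR-4284, and that of miR-3613-3p, was lost when libraries were scaled to total counts.

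Of the 28 late names with 0 reads in K562, 3 were called higher, and such a name could not be called lower. The share called among all names with 0 reads in K562 was not counted. MiR-3923 had 11 reads in K562/ADM, at least 4.49-fold higher when K562 is set at a floor of 3 reads. MiR-3189 had 6 and miR-3656 had 5 reads there, at least 2.45-fold and 2.04-fold higher on the same floor. The floor leaves out the counting error of K562/ADM, and the lower ends of the counting intervals were 3.07 for miR-3923, 1.44 for miR-3189 and 1.12 for miR-3656. MiR-3923 lies at 79557087 to 79557108 on the plus strand of chromosome 3, opposite an intron of ROBO1, an axon guidance receptor, and miR-3189 lies in an intron of GDF15, a stress-induced cytokine.

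MiR-3168 led the lower names. It was read 1413 times in K562 and 277 times in K562/ADM (ratio 0.240, interval 0.210 to 0.273) and was called lower under every scaling tried. It lies at 41675212 to 41675228 on the minus strand of chromosome 13, where the annotation gives no other gene. Its sequence resembles, as background knowledge, part of the 5' adapter of Illumina small RNA libraries, and whether adapter sequence is among its reads in either library was not tested. MiR-3676 followed with 369 and 88 reads, at 0.292 of its level in K562 (0.229 to 0.369). It is on the list, given below, of names that share their place with another noncoding RNA, in its case a tRNA. No sequence was matched to this name, so its position was not checked.

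MiR-3158 fell from 267 reads to 79, to 0.362 of its level (0.278 to 0.467), and miR-3942 from 209 to 57, to 0.334 (0.245 to 0.450). The sequences of miR-3158 match both strands of 1 place in an intron of DPCD, and miR-3942 lies in an intron of DPH6, an enzyme of diphthamide synthesis. Among the other lower names with at least 50 reads, the ratios of miR-3668, mir-3159*, miR-3691, miR-3136, miR-3176 and miR-3130-5p ran from 0.318 for miR-3176 to 0.472 for mir-3159*. Their reads in K562 and K562/ADM were 139 and 49 for miR-3668, 135 and 52 for mir-3159*, 137 and 48 for miR-3691, 79 and 28 for miR-3136, 77 and 20 for miR-3176, and 53 and 18 for miR-3130-5p. The sources used here do not say what the asterisk stands for where a name is spelled mir. Of the rarer names, miR-3163 had 43 and 5 reads, a ratio of 0.142 (0.0440 to 0.359), and miR-3162 had 20 and 2, a ratio of 0.122 (0.0139 to 0.504). MiR-3163 lies in an intron of PC, pyruvate carboxylase, and miR-3162 in an intron of OSBP, an oxysterol-binding protein. MiR-3667-5p had 34 and 11 reads, and miR-3130-3p had 7 and 0, at least 1.90-fold lower on the floor of 3 reads, with an upper end of its ratio of 0.850. MiR-3123 and miR-3124 had 6 reads in K562 and 0 in the other library, and were not called.

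**Figure D3:**
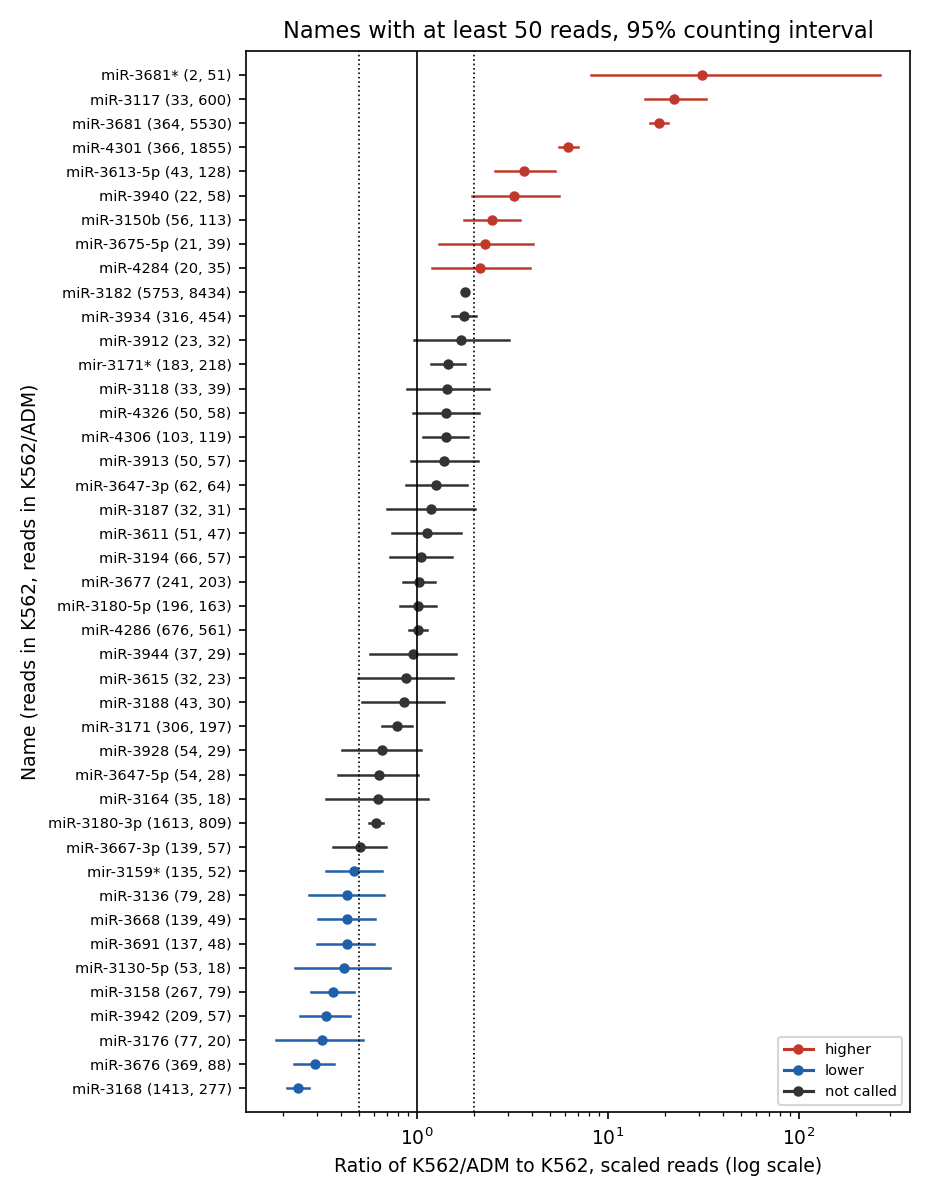
Ratio of K562/ADM to K562 (horizontal axis, log scale) of the 43 late names with at least 50 reads, each with its reads in K562 and K562/ADM. Points are ratios, bars are 95% counting intervals, and vertical lines mark 1 (solid) and 2-fold (dotted), with 9 names called higher, 10 called lower and 24 not called.

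Several abundant names were close to the 2-fold limit or differed little. MiR-3182 was 1.80-fold higher (1.74 to 1.86) and was not called, but its ratio was 3.005 with upper-quartile factors. It lies at 83541954 to 83541970 on the plus strand of chromosome 16, in an intron of CDH13, which encodes T-cadherin. MiR-3934 had 316 and 454 reads, 1.76-fold higher (1.52 to 2.04). The 1613 reads of miR-3180-3p in K562 stood against 809 in K562/ADM, and the ratio of 0.614 (0.564 to 0.669) became 1.03 with upper-quartile factors. MiR-4286, with 676 and 561 reads, and miR-3677, with 241 and 203, had ratios of 1.02 (0.907 to 1.14) and 1.03 (0.852 to 1.25). The intervals of 7 of the 24 names with at least 50 reads that were not called excluded 1, and their ratios ran from 0.502 to 1.80.

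The summed reads of the late names had a ratio of 1.79 (1.75 to 1.82), and a few names weighed heavily in it. Without miR-3681 the ratio was 1.36 (1.33 to 1.39). Without miR-3182, miR-3681 and miR-4301, the names that gained the most reads, 8215 reads in K562 stood against 5611 in K562/ADM. That ratio was 0.836 (0.808 to 0.865), and 1.40 (1.35 to 1.45) with upper-quartile factors. The names left out were picked by their gain, so taking them out could only lower the ratio. Names with large losses were kept, such as miR-3168 (1413 and 277 reads) and miR-3180-3p (1613 and 809). A typical name did not follow the sum. The median log2 ratio was 0.03 over the 79 late names with at least 10 reads and reads in both libraries (quartiles -0.95 and 0.79), beside -0.05 over all 579 such names. By number, the ratio of the summed reads was 4.19 (3.98 to 4.41) for the 61 names from 3605 to 3692, led by miR-3681, and 2.65 (2.47 to 2.84) for the 8 from 4254 to 4326, led by miR-4301. It was 1.30 (1.27 to 1.34) for the 90 names from 3065 to 3202 and 1.23 (1.11 to 1.36) for the 32 from 3907 to 3944. The larger ratios rested mainly on their leading names. MiR-3681 held 364 and 5530 of the 1915 and 6547 reads of its range in K562 and K562/ADM. MiR-4301 held 366 and 1855 of 1216 and 2630.

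For 47 hairpins 2 names were listed, and 37 of these had at least 10 reads. Both names lay on the same side of 1 in 23 of the 37 (62.2%), and in 150 of 206 such pairs among the other names (72.8%). Both names were called in the same direction for miR-3681, miR-3613 and miR-3130, and of these only miR-3681 was so called under every scaling tried. The call of miR-3130-3p, with 7 and 0 reads, rested on its interval alone. The share of each name in the reads of its hairpin is taken within a library and is not altered by scaling. Where the second name is spelled mir with an asterisk, that it counts the other strand is not known, and the share is that of the name. For 3 hairpins (8.11%) the intervals of this share did not overlap between the libraries. Among the 206 other pairs this held for 38 (18.4%), and those pairs had a median of 667 reads against 48. Among pairs with 100 to 1000 reads the order was the other way, with 2 of 12 late pairs (16.7%) and 5 of 60 other pairs (8.33%). MiR-3171 had 306 and 197 reads and mir-3171* had 183 and 218, so that the asterisk name went from 37.4% of the reads of the hairpin in K562 (33.1 to 41.9) to 52.5% in K562/ADM (47.6 to 57.4). The total of both was nearly level, at a ratio of 1.04 (0.910 to 1.19). For miR-3180, the 5p share was 10.8% (9.44 to 12.4) in K562 and 16.8% (14.5 to 19.3) in K562/ADM. For miR-3676, mir-3676* was 12 of 381 reads, or 3.15% (1.64 to 5.44), in K562 and 18 of 106, or 17.0% (10.4 to 25.5), in K562/ADM. Whether reads of either name are tRNA fragments was not tested.

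**Figure D4:**
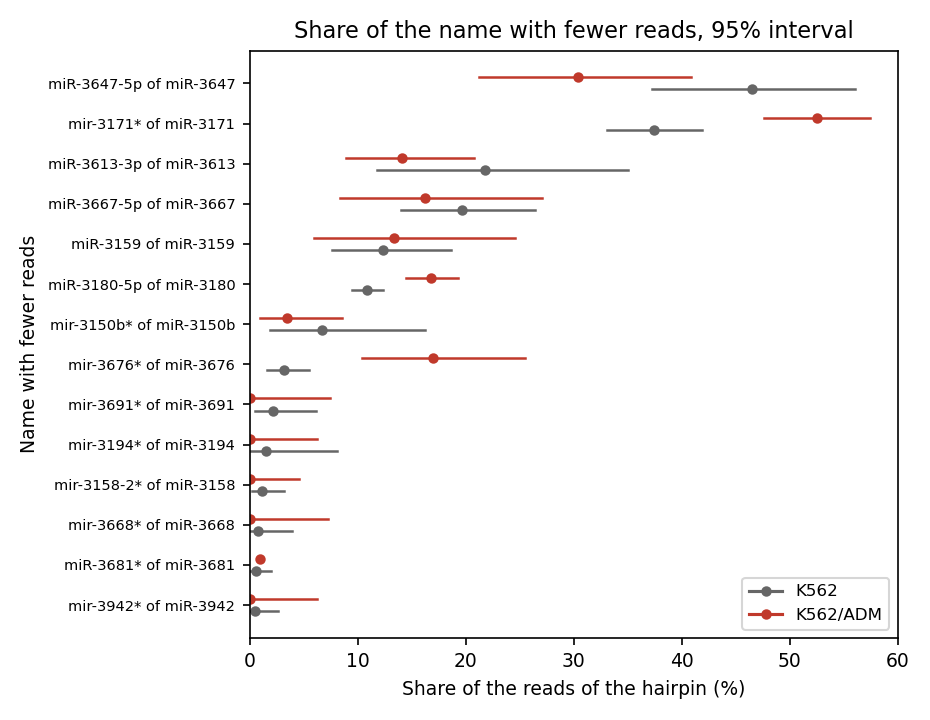
Share of a hairpin's reads (horizontal axis, %) held by its less abundant name in K562 (grey) and K562/ADM (red), for hairpins with at least 100 reads, with 95% Clopper-Pearson intervals. The intervals of miR-3171, miR-3180 and miR-3676 do not overlap between the libraries.

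Very short sequences were a larger share of the late names than of the others. Of the 90 late names matched to 1 sequence, 8 (8.89%) were at most 18 nt long, against 4 of 231 other names (1.73%), and the medians were 22 nt in both. These 8 held 7306 reads in K562 and 8870 in K562/ADM, mainly through miR-3182 and miR-3168, which are both 17 nt long. That was 68.3% and 70.1% of the reads of the 90 matched late names. This base leaves out names whose arm is not given, among them miR-3681 (364 and 5530 reads), whose arms are both 22 nt. All 191 late names held 14698 and 21430 reads, and of these the 8 held a smaller share. The resemblance of miR-3168 to an adapter, untested here, bears on these shares as well. A short sequence can match several places, and miR-4306, with 17 nt and 103 and 119 reads, had 4 perfect matches in GRCh37. MiR-3182 and miR-3168 each had 1. Near matches in the genome were not searched, so 1 perfect match does not settle where the reads of a name came from. Over the 162 distinct sequences of 126 names, 132 had 1 perfect match and 30 had 2 or more, up to 12. The 5 matches of miR-3180-3p and of miR-3180-5p lie on chromosome 16, and their reads cannot be assigned to 1 copy.

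The late names with a single place lay mostly within genes. Of 101 such names, 53 were in a same-strand intron of a protein-coding gene, of which 4 were called higher and 6 lower, where 11.1% and 15.6% of all names were called. The exons of protein-coding genes on the same strand held 9 names, none of them called. A noncoding or other gene on the same strand held 13 (3 higher, 1 lower), 12 lay only opposite a gene (2 higher, 0 lower) and 14 had no other gene (1 higher, 1 lower). Levels of the host transcripts were not analysed here.

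Among the names matched to 1 sequence, 3 seeds of late names were shared. MiR-3180-3p and miR-3196 share GGGGCGG, but miR-3196 had 4 and 3 reads. MiR-3916 and miR-3125 share AGAGGAA with at most 3 reads in a library, and miR-3679-5p, with 2 and 2 reads, shares GAGGAUA with miR-1185, which is numbered below 3000 and had 385 and 29. If miR-3913, with 50 and 57 reads, counts its 5p arm, it shares UUGGGAC with miR-3122, which had 9 and 4. Seeds shared with other names whose arm is not given were not compared.

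Names that share their place with another noncoding RNA were followed as a list. Of its 9 names, from 6 hairpins, 1 was called lower (miR-3676) and 0 higher, beside 15.6% and 11.1% of all names. MiR-3651, which lies in the snoRNA SNORA84, had 20 and 17 reads, a ratio of 1.04 (0.512 to 2.09), and miR-3607-3p had 25 and 16, a ratio of 0.784 (0.391 to 1.53). The list held 448 reads in K562 and 145 in K562/ADM, most of them of miR-3676. Names opposite an older miR gene gave 5 names from 3 of 6 hairpins, with 45 and 24 reads, and mir-3074* was called lower, with 24 and 8 reads and a ratio of 0.408 (0.159 to 0.939). Its call, like that of mir-3159*, was lost when the median of ratios was taken over names with at least 50 reads. MiR-24, whose hairpin miR-24-1 lies opposite miR-3074, was 2.42-fold higher (2.35 to 2.48), with 8669 and 17093 reads. These reads can come from either of its genomic copies. MiR-24-1*, named for that hairpin, had 5 and 1 reads and was not called. MiR-338-3p, opposite miR-3065, was called higher with 2 and 17 reads, 10.4-fold (2.47 to 92.9). MiR-338-5p, with 0 and 1 reads, and miR-214, opposite miR-3120, with 0 and 3, were not called.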

How the data were processed

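Small RNA of K562 and K562/ADM was sequenced by the authors, who collapsed reads to unique sequences without singletons and mapped them to miRBase 16 with Bowtie in miRanalyzer. The submitters' processing notes also name CASAVA 1.7.0, DESeq and hg18. The deposited signal is each count divided by a size factor. Dividing by the smallest value above 0 gave whole reads for 100% of values within 0.001. The authors' fold, log2, p-value and adjusted p columns were not used. Reads were rescaled by the median of ratios, and ratios received exact binomial intervals. With 1 library each, no replicated test can be fitted and no p-value was computed. On simulated libraries the procedure was tested before use. Those libraries held counting noise only and changes well past 2-fold. Noise between libraries and changes near 2-fold were therefore not tested. Members and lists were chosen with earlier results of these data known. Names given are the 10 most abundant, called names with at least 50 reads, the 5 most abundant other calls in each direction, names absent from 1 library with at least 5 reads, strand pairs and the lists. Positions are perfect matches in GRCh37 with GENCODE context, and may differ from the submitters' build. Alternatives were other scalings, read minimums, call rules, a pseudocount of 1 and name sets (edgeR 4.0.16, scipy 1.17.1).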

Additional observations from a re-analysis of the deposited data

How the results depend on the processing

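Counts of calls moved with the scaling and the call rule. Upper-quartile factors gave 31 higher and 4 lower (223 and 95 of all 934 names), the minimum of 50 reads 9 higher, fold alone 49 higher and 62 lower (236 and 275 of all names), and an interval wholly past 2-fold 7 higher and 5 lower (61 and 104). The median log2 ratio was -0.11 with total counts, against 0.03, and 0.77 with upper-quartile factors. It exceeded that of names below 1000 by 0.06, but lay under it by a difference of -0.10 without asterisk names. It exceeded that of names 1000 to 2861 by 0.25, and by 0.56 with at least 50 reads. Detection at 3, 5 and 10 reads was 106, 92 and 68 names in K562, 98, 79 and 62 in K562/ADM, and 85, 71 and 57 in both. Names that reached 3, 5 and 10 reads in K562 but not in K562/ADM numbered 21, 21 and 11. Without asterisk names, 18 names had reads in K562 alone. Names that reached 2, 3, 5 and 10 reads in K562/ADM but not in K562 numbered 16, 13, 8 and 5. The share of reads in K562 was 0.388% without miR-378, 0.913% without the 10 most abundant names and 0.117% without the most abundant late name. In K562/ADM these shares were 0.662%, 1.84% and 0.189%. The cause of these changes was not tested beyond what each alternative's construction removes. Of 73 named ratios, 27 moved past their interval with upper-quartile factors, 2 with total counts, 1 with the median of ratios over names with at least 50 reads, and 0 with TMM, with names below 3000 or with 1 added. Each scaling moved every log2 ratio by the same amount, 0.74 for upper-quartile factors and 0.002 for TMM. Which ratios left their interval was thus set by its width, and staying within it does not mark a firmer result. No paired analysis was possible because each cell line had 1 library. Depth limits the 111 names with fewer than 10 reads, and the noise between preparations is not known.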
